A study of Mus musculus with 6 samples.

Results

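The genes described here are 37 genes of glycolysis and of the response to low oxygen, measured by single-cell RNA sequencing in mouse YUMM2.1 melanoma material. They were chosen by symbol among the 31053 genes of the count matrices, and all 37 symbols were found. The list holds 15 glycolytic enzymes (Hk1, Hk2, Gpi1, Pfkl, Pfkm, Pfkp, Aldoa, Aldoc, Tpi1, Gapdh, Pgk1, Pgam1, Eno1, Pkm and Ldha), 5 genes of transport and regulation of the pathway (Slc2a1, Slc16a3, Pfkfb3, Pfkfb4 and Pdk1), and 17 genes made up of Hif1a and other HIF targets (Bnip3, Bnip3l, Ankrd37, Adm, Ndufa4l2, Car9, Vegfa, Egln1, Egln3, P4ha1, P4ha2, Ero1l, Mxi1, Kdm3a, Pgf and Apln).

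Glycolysis splits glucose into pyruvate in the cytosol, and lactate dehydrogenase turns pyruvate into lactate when little of it enters the mitochondria. Hypoxia-inducible factor 1 alpha, encoded by Hif1a, is hydroxylated by the Egln prolyl hydroxylases and degraded while oxygen is plentiful. When oxygen falls, the protein is stabilised, pairs with Arnt and binds short core motifs beside its targets, among them most glycolytic enzymes, the glucose transporter Slc2a1, the lactate exporter Slc16a3, the angiogenic factor Vegfa and the pH regulator Car9. Bmal1, encoded by Arntl, is a circadian transcription factor of the same bHLH-PAS family as Hif1a and Arnt, and pairs with Clock on E-box motifs.

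The submitters compared cells by their Bmal1 status, and 2 groups were used here, named Empty vector and Bmal1 WT by the labels. YUMM2.1 is a cell line derived from a mouse melanoma. Each group was 1 droplet library holding 3 hashtagged replicates, h1, h7 and h8 for Empty vector and h3, h5 and h9 for Bmal1 WT. The labels give neither the host genotype, the age nor the time of collection, and do not say whether the replicates came from separate mice or cultures, so p-values measure only the spread between hashtagged replicates. The group and its droplet channel cannot be told apart. The Bmal1 bHLH group was not analysed because its matrix files were identical to those of Bmal1 WT.

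The labels name a cell line, but most cells carried markers of other cell types. Of 3978 Empty vector and 2386 Bmal1 WT cells kept (medians of 5094 and 7570.5 UMIs, that is unique molecules, per cell; library totals of 34232927 and 39561569), 3420 and 1826 fell into a class by a per-cell gate on marker genes, none of them a member. The classes were melanoma (99 Empty vector and 252 Bmal1 WT cells), fibroblast (134 and 218), macrophage or monocyte (684 and 384), dendritic cell (223 and 155), T cell (1120 and 364) and NK cell (1126 and 425). In the melanoma class 2 of 15 melanoma markers were at 0 in Empty vector and 3 of 15 in Bmal1 WT, and 35.4% and 31.0% of its cells had a mitochondrial share under 1%. The 2 libraries shared 5 barcodes, of which 0 fell into a class in both. Only 44 and 75 melanoma and 30 and 42 fibroblast cells had 1 hashtag, and Empty vector h7 held 4 melanoma cells. Clustering of all cells gave the same class in 84.8% of the 5246 gated cells. Arntl in the melanoma class was at 57.5, 104 and 58.5 CPM in the Empty vector replicates and at 40.3, 61.6 and 64.2 in those of Bmal1 WT (CPM is the share of a gene in all UMIs of the class and replicate, on the usual CPM scale; log2 fold change -0.19, adjusted p = 0.999, edgeR), so that the 3′ reads of this gene did not separate the groups. Whether 3′ tags of an introduced Bmal1 transcript would be counted under this gene was not tested.

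The promoters of 4 members are shown because each stands for a role within the list and its window holds the core of the HIF binding motif. Positions of all members were matched by identifier to GENCODE M21 on GRCm38 (mm10). Slc16a3 (ENSMUSG00000025161) lies on chromosome 11 from 120948480 to 120960868, Ndufa4l2 (ENSMUSG00000040280) on chromosome 10 from 127514967 to 127517154, and Hif1a (ENSMUSG00000021109) on chromosome 12 from 73901375 to 73947530, all on the plus strand. The promoter windows are the 250 bases before the RefSeq transcript start on GRCm38.p6, read in the direction of transcription. Capitals mark the letters ACGTG or GCGTG, or their reverse complements CACGT and CACGC. Hk2, hexokinase 2, catalyses the first step of glycolysis (chr6:82774455-82774704, minus strand). Pgk1, phosphoglycerate kinase, makes ATP in the pathway (chrX:106186850-106187099, plus strand). P4ha1, a subunit of collagen prolyl hydroxylase, lies at chr10:59323046-59323295 on the plus strand, and Bnip3, a receptor for mitophagy, at chr7:138909507-138909756 on the minus strand.
Hk2: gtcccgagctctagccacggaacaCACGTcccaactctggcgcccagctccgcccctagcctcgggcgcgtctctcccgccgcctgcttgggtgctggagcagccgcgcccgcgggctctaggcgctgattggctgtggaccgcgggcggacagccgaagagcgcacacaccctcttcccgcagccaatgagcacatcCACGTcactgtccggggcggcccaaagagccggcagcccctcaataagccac
Pgk1: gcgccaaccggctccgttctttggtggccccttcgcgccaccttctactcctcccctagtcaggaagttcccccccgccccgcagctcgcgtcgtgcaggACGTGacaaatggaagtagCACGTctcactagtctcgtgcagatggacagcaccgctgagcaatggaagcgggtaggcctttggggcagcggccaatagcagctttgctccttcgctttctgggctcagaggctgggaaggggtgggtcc
P4ha1: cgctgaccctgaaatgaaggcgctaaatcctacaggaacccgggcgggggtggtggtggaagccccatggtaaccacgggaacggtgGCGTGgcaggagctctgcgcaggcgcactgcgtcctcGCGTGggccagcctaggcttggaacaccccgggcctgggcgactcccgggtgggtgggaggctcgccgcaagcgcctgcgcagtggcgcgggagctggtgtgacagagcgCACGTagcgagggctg
Bnip3: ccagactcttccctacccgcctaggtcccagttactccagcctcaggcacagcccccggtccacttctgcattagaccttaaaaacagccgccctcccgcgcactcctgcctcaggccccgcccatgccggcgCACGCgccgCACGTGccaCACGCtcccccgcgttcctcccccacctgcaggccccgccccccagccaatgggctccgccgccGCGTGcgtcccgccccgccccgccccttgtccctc

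Windows from 250 bases before to 50 after the start were at hand for 34 of the 37 members. ACGTG or GCGTG, on either strand, occurred in the window of 31 of these 34 genes (91.2%), against 46.7% of 27025 genes, and in 40 of 53 member windows (75.5%) against 43.8% of 32851 windows. By list these were 13 of 15 enzymes, 5 of 5 transport and regulation genes and 13 of 14 HIF targets. The E-box CACGTG, which contains ACGTG on both strands, occurred in 5 genes (14.7%), Ldha, Pfkfb3, Pfkm, Bnip3 and Hif1a, against 8.09% of all genes. In the Bnip3 sequence above it stands between reverse GCGTG cores. A match of letters is a description of the window, not a binding site.

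**Figure D1:**
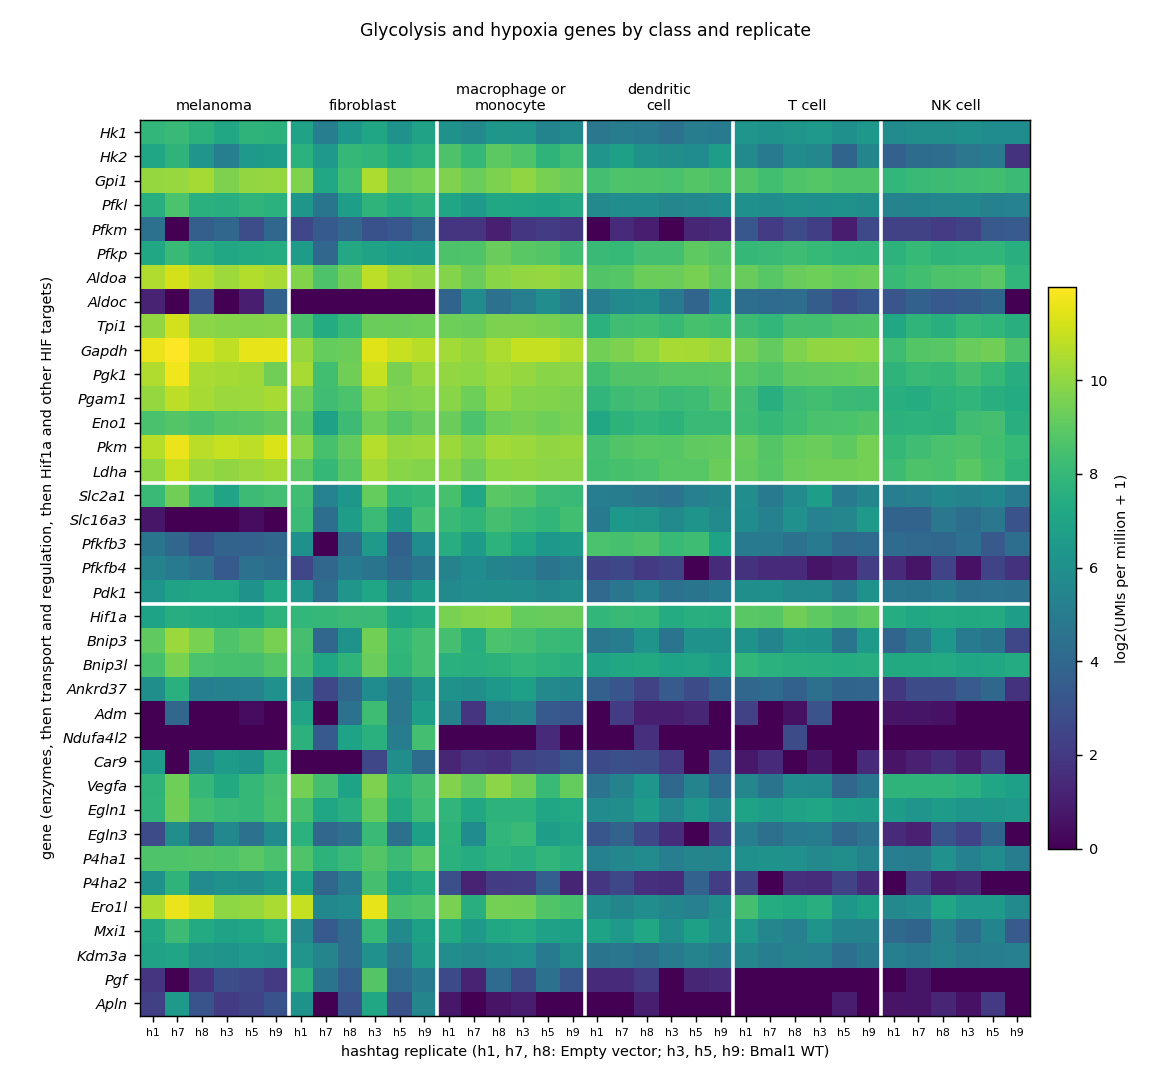
Level of each of the 37 genes (rows, in the order enzymes, transport and regulation, HIF genes) in each hashtagged replicate (columns) of the 6 classes, coloured by log2 of CPM plus 1. Most enzymes are brightest in the melanoma columns, whereas Ndufa4l2 is bright in fibroblasts, Slc16a3 is dark in melanoma, and Pfkfb3 is brightest in dendritic cells.

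The first comparison set each class against the mean of the other 5 classes, within the same replicates. Levels are in CPM. One UMI stands for one molecule tagged at its 3′ end, so levels need no length scaling, but they were compared only within a gene. The test was edgeR's quasi-likelihood test with the replicate as a block over 11666 genes with at least 100 UMIs, and a gene was called at a Benjamini-Hochberg adjusted p under 0.05. Differences are on the log2 scale with SE, each adjusted over all genes of its contrast.

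Glycolytic enzymes were highest in the melanoma class, followed by macrophages, and lowest in NK cells. Their summed level had a median of 13206 CPM (lowest 11267, highest 21800) in melanoma replicates, 9589 (7318 to 10859) in macrophages, 8244 (2826 to 13912) in fibroblasts, 5120 (3760 to 5598) in T cells, 4869 (3473 to 5570) in dendritic cells and 3075 (2426 to 3756) in NK cells. The ranges of melanoma and macrophage replicates did not overlap, and nor did those of macrophages and T cells. Fibroblast replicates overlapped both neighbours. Hif1a and the HIF targets summed to a median of 4217 CPM (3207 to 8001) in melanoma, 3126 (2499 to 4213) in macrophages and 2727 (1256 to 8436) in fibroblasts, which overlapped each other, and to 1270 (974 to 1583) in T cells, 783 (596 to 1014) in NK cells and 742 (560 to 971) in dendritic cells. Of the 15 enzymes, 11 had their highest class median in melanoma, 3 (Hk2, Pfkp and Eno1) in macrophages and 1 (Aldoc) in dendritic cells. These medians use cells with 1 hashtag only. Over Empty vector cells thinned to equal depth, hashtagged or not, Aldoc had 31 UMIs in 80 melanoma and 38 in 192 dendritic cells. Per cell it was thus higher in melanoma there, but only 3 of the 80 cells held it. In Bmal1 WT, 2 of 206 melanoma cells did.

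In the melanoma class 27 of 37 members were called higher (background 38.3% of genes tested) and 5 lower (22.7%). The higher calls were 12 enzymes, 3 transport and regulation genes and 12 HIF targets. Median differences were 1.42 for the enzymes and 1.23 for Hif1a and HIF targets, against 0.17 over all genes tested. Gapdh, which makes the NADH of the pathway, stood at a median of 3028 (1846 to 4067) CPM in melanoma and 453 (308 to 665) in NK cells. Pkm, pyruvate kinase, had a median of 1909 (1691 to 3195) in melanoma against 1123 (882 to 1267) in macrophages, with no overlap between these classes. The same absence of overlap between first and second class held for Hk1, Tpi1 and Pgam1 among the enzymes, and for Bnip3, Ero1l and Kdm3a among the HIF targets with melanoma first.

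Car9, carbonic anhydrase 9, showed the largest positive member difference of the melanoma class (4.81 ± 0.31, adjusted p = 4.7e-15). Its level was at a median of 84.2 (0 to 224) CPM there and of 5.31 (0 to 6.64) in dendritic cells, the next class by median. Fibroblasts had a lower median of 2.41 but ranged from 0 to 59 CPM, inside the melanoma range. The melanoma replicate without any Car9 UMI was Empty vector h7 with its 4 cells. P4ha2, another collagen prolyl hydroxylase subunit, was also higher (3.57 ± 0.34, adjusted p = 4.6e-11). Its median of 68.6 (54 to 222) in melanoma overlapped the 113 (14.4 to 354) of fibroblasts. Ero1l, an oxidase of the endoplasmic reticulum, was higher (3.25 ± 0.35, adjusted p = 7.0e-10), with a median of 1431 (982 to 3165) in melanoma and 557 (189 to 773) in macrophages, the next class. All 6 melanoma replicates lay above all 6 macrophage replicates for Ero1l.

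Slc16a3, the lactate exporter MCT4, was the strongest exception. The melanoma class held 2 Slc16a3 UMIs in 7604528, 0.263 CPM, against 118 in the other classes together, a ratio of 447 (95% counting interval 124 to 3695). At least 4 of the 6 melanoma replicates thus held none. The related transporter Slc16a1 (MCT1), no member, was higher in the melanoma class by 2.94 on the log2 scale, with 150 to 281 CPM in Empty vector and 95.2 to 129 in Bmal1 WT. Hif1a itself was called lower in the melanoma class (-0.89 ± 0.13, adjusted p = 5.9e-07), with a median of 161 (124 to 215) CPM. Pfkfb3, which makes the activator of phosphofructokinase, was also lower (-1.95), as were Pfkp (-0.57) and Adm, with 2 UMIs in the class. Markers of other types summed in melanoma replicates to 59.2 to 329 CPM for fibroblast, 40.3 to 166 for NK cell and 5.24 to 15.2 for macrophage lists. Over all melanoma cells pericyte markers summed to 295 CPM in Empty vector and 267 in Bmal1 WT. Their part in these levels was not tested.

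More HIF genes than enzymes were called higher in fibroblasts. In all, 25 members were called higher (28.4% of all genes) and 3 lower (17.5%), and the higher calls were 7 of 15 enzymes, 4 of 5 transport and regulation genes and 14 of 17 HIF genes. The median difference was 0.36 for enzymes and 1.76 for HIF genes, against 0.06 over all genes. The count rests on few cells: without Bmal1 WT h3, in which 52.9% of fibroblasts had under 1% mitochondrial UMIs, 16 members were called higher, and without Empty vector h7 29 were.

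Ndufa4l2, a HIF target linked to lower respiratory activity, was found almost only in fibroblasts. Its level was 208, 9.63 and 124 CPM in the Empty vector replicates and 195, 33 and 335 in those of Bmal1 WT. Both groups covered a wide range in this class, and all 6 replicates held it. Melanoma and NK cells held 0 UMIs of it, so that the other classes together were at least 22.4-fold and 26.3-fold higher, taking 3 UMIs per class as the floor, and macrophages and dendritic cells held 2 each. Shmt2 lies on the opposite strand over this gene, and the use of strand in counting was not stated.

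Pgf, placental growth factor, and Adm, adrenomedullin, were the next most raised in fibroblasts. Pgf (6.53 ± 0.55, adjusted p = 4.0e-11) had a median of 26.9 (11 to 439) CPM. Adm (5.83 ± 0.42, adjusted p = 1.1e-13) was at 65 (0 to 306), with no UMI in Empty vector h7. Aldoc, an aldolase, was not seen in fibroblasts (0 of 2010521 UMIs), which puts the other classes at least 12.3-fold higher. Hif1a was lower (-0.35), as was Pfkp, a phosphofructokinase (-1.49).

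Macrophages or monocytes had 27 members called higher (22.6% of all genes) and 2 lower (40.2%). The higher calls were 13 enzymes, 4 transport and regulation genes and 10 HIF genes. Slc16a3 led (3.76 ± 0.23, adjusted p = 1.2e-15), with a median of 281 (228 to 347) CPM, followed by Adm (3.63) and Egln3 (3.24), a prolyl hydroxylase that is itself a HIF target. Hif1a was at its highest here, at 681 (564 to 931), and was called higher (1.65 ± 0.11, adjusted p = 4.4e-15). P4ha2 (-1.15 ± 0.50, adjusted p = 0.0474, 47 UMIs in all) and Pfkm (-0.97), a phosphofructokinase, were called lower, and both calls were lost with either other scaling, with cluster-based classes and when any of Empty vector h1, h7 or h8 or Bmal1 WT h9 was left out. P4ha2 was also lost without Bmal1 WT h3. Stress genes of dissociation summed to 7955 CPM in Empty vector and 6024 in Bmal1 WT macrophages, above every other tested class, and their part in these levels was not tested.

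Dendritic cells differed from macrophages in most members. Only 4 members were called higher in them than in the mean of the other classes (22% of all genes) and 24 lower (28.7%). Pfkfb3 was highest in this class, at 391, 357 and 403 CPM in the Empty vector replicates and 282, 303 and 123 in those of Bmal1 WT. The Empty vector replicates lay above the Bmal1 WT ones (-0.69 on the log2 scale, not called). Groups did not overlap for 22.4% of all genes in this class. All but 1 of the 6 replicates lay above every macrophage replicate, whose median was 115 (83.1 to 214). That 1, Bmal1 WT h9, had dendritic cell markers at 3460 CPM, against 5425 to 6232 in the others, and their part was not tested. The class difference was 3.31 ± 0.19, adjusted p = 3.0e-16. Aldoc (3.08), Slc16a3 (1.14, lost with cluster-based classes) and Pfkp (0.76) were the other higher calls. The Slc16a3 median of 62.7 (30.8 to 83) CPM lay below those of macrophages (281) and fibroblasts (193). It lay above those of T cells (50.4), NK cells (16) and melanoma (0), and the part of the melanoma level in this call was not tested. Ero1l was the lowest (-2.95 ± 0.52, adjusted p = 1.4e-05), at a median of 51.4 (36.8 to 60.6) CPM. In the direct contrast of macrophages with dendritic cells, 28 members were called higher in macrophages (18.8% of all genes) and 1, Pfkfb3, lower (-1.24 ± 0.26, adjusted p = 2.2e-04; 23.8% of all genes).

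T cells had 2 members called higher (37.2% of all genes) and 20 lower (17%). Hif1a was higher (1.08 ± 0.11, adjusted p = 4.6e-10), at 500.4 (422 to 670.4) CPM, which overlapped its macrophage level of 681 (564 to 931). Slc16a3 was called higher too against the mean of the other classes (0.88 ± 0.30, adjusted p = 0.0136). This call was lost with DESeq2 and with cluster-based classes. The Slc16a3 median of 50.4 (37.9 to 85.9) CPM in T cells lay below those of macrophages (281), fibroblasts (193) and dendritic cells (62.7). It lay above those of NK cells (16) and melanoma (0). The part of the melanoma level in this call was not tested. Macrophage markers summed to 253 to 892 CPM in T cells, against 7058 to 10793 in macrophages themselves, and their part in these 2 genes was not tested. Pgf had 0 UMIs in 9651335, so the other classes together were at least 37.8-fold higher. NK cells were as low, with 1 Pgf UMI in 8642339. The lower call of Pgf in T cells was lost with cluster-based classes and without Empty vector h7.

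NK cells had 0 members called higher (29.3% of all genes; edgeR) and 29 lower (22.3%), 12 of them enzymes, 4 transport and regulation genes and 13 HIF genes. The median difference of the HIF genes was -2.11, against 0.03 over all genes. Vegfa was the exception when NK cells were set against T cells. Vegfa was at 224, 224 and 222 CPM in the Empty vector replicates and 192, 136 and 107 in those of Bmal1 WT in NK cells and at a median of 35.3 (14.4 to 54.5) in T cells, without overlap between the classes. The difference was 2.37 ± 0.38, adjusted p = 1.4e-05, and Vegfa was the 1 member called higher (5.85% of all genes), while 14 were lower in NK cells (10.3%), Hif1a among them (-1.78). Adm had 3 UMIs in 8642339 (other classes at 45.3 times this level, 95% counting interval 15.4 to 220). Macrophage markers summed to 673 to 1153 CPM in NK cells, and their part in the Vegfa level was not tested.

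Melanoma and fibroblast cells, set directly against each other, differed by list. Melanoma was higher in 13 members (16.4% of all genes) and lower in 9 (14.5%). Of the enzymes 10 were higher in melanoma and 1, Hk2, lower (-0.98), while of the HIF genes 3 (Bnip3, Car9 and Kdm3a) were higher and 6 (Hif1a, Adm, Ndufa4l2, Egln3, Pgf and Apln) lower. The 3 direct pairs of classes were added after class levels had been seen.

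Other members followed these orders. Slc2a1, the glucose transporter, was at a median of 329 (141 to 489) CPM in macrophages and 282 (126 to 680.3) in melanoma, against 33 (22.7 to 45) in dendritic cells. Pdk1, which inhibits pyruvate dehydrogenase, was highest in melanoma, at 125 (69.1 to 141), and overlapped fibroblasts. Egln1, the main oxygen-sensing hydroxylase of HIF, stood at 299.9 (229 to 666) in melanoma and 56.6 (45.5 to 98.7) in dendritic cells. Bnip3l, a mitophagy receptor like Bnip3, was at 375 (349 to 754) in melanoma and varied less over classes, with 124 (102 to 155) in dendritic cells. Mxi1, an antagonist of Myc, was at 151 (119 to 296) in melanoma and 18 (9.72 to 41.1) in NK cells. Ankrd37 was highest in macrophages, at 64.8 (43.9 to 107), overlapping melanoma. Apln, apelin, was the scarcest member, with 155 UMIs over all 6 classes and a median of 25.9 (0 to 145) in fibroblasts.

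The split of calls over all genes moved with scaling, from 62.8% higher to 52.6% in melanoma, 43.4% to 57.3% in dendritic cells and 68.6% to 54.5% in T cells when TMM factors replaced totals. In macrophages it moved from 2637 higher and 4689 lower to 3733 and 2665. TMM shifted the median of all genes by -0.18 in melanoma, 0.34 in macrophages, 0.19 in dendritic cells and -0.18 in T cells, by -0.13 in fibroblasts and by -0.04 in NK cells. In macrophages the 2 lower calls of members then became 0.

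**Figure D2:**
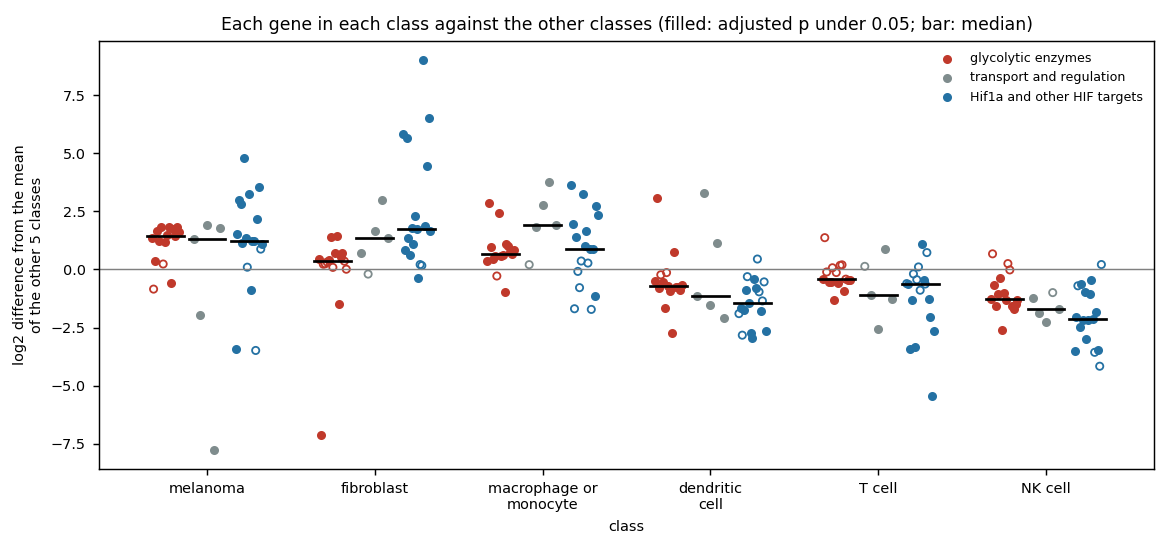
Log2 difference of each member between a class and the mean of the other 5 classes, with the 3 lists set apart in each class, filled points past an adjusted p of 0.05 and bars at the list medians. Points of both main lists lie mostly above 0 in melanoma and macrophages and below 0 in NK cells, where no member was called higher.

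Other genes of the same pathways, from a list that held no member, were tested alongside. Of 20 further glycolysis genes 11 could be tested and of 29 further HIF pathway genes 27. Further HIF genes were called higher 14 times and lower 3 times in melanoma, 18 and 2 times in fibroblasts, 9 and 4 in macrophages, 2 and 18 in dendritic cells, 5 and 9 in T cells, and 3 and 11 in NK cells. Stc1, a secreted glycoprotein, led in melanoma (5.34), and Lox, a collagen cross-linking enzyme, in fibroblasts (10.11). Of the 11 further glycolysis genes, 5 were called higher and 3 lower in melanoma, 6 and 0 in fibroblasts, 5 and 2 in macrophages, 3 and 5 in dendritic cells, 3 and 1 in T cells, and 1 and 4 in NK cells. The shares of all genes called are those given above for each class, and the melanoma counts lay near them (38.3% higher and 22.7% lower). Among the 15 member enzymes in T cells, by comparison, 0 were called higher and 8 lower. Hk3, a hexokinase, was higher in macrophages (5.30), and Ldhb, the other lactate dehydrogenase subunit, in melanoma (3.12).

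Among single cells, the enzymes and the HIF genes went together in melanoma, fibroblast and macrophage cells and much less in lymphocytes. Each cell was thinned to 3000 UMIs, leaving out shallower cells, and the summed enzyme UMIs were ranked against the summed UMIs of the HIF genes. Spearman's rho was 0.71 in 80 Empty vector and 0.77 in 206 Bmal1 WT melanoma cells, 0.71 (111 cells) and 0.78 (190) in fibroblasts, and 0.78 (596) and 0.78 (327) in macrophages. It was 0.30 (192) and 0.25 (117) in dendritic cells, 0.41 (739) and 0.36 (329) in T cells, and 0.15 (808) and 0.13 (378) in NK cells. Hif1a alone, ranked against the sum of the other members, gave 0.19 and -0.037 in melanoma and 0.025 and 0.082 in fibroblasts. It gave 0.23 and 0.18 in macrophages, 0.10 and 0.016 in dendritic cells, 0.33 and 0.30 in T cells, and 0.18 and 0.16 in NK cells. By the same ranking Pfkfb3, highest in dendritic cells, gave -0.26 in Empty vector and -0.24 in Bmal1 WT dendritic cells. The median HIF sum was 11 and 9 UMIs in melanoma but 2 and 2 in NK cells, so fewer counts stood behind the lower values. These values are descriptions of cells that share a library.

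Shares of cells with a UMI, after the same thinning, followed the class levels. Slc16a3 was found in 293 of 596 cells (49.2%, 95% interval 45.1 to 53.3%) of Empty vector and 148 of 327 cells (45.3%, 95% interval 39.8 to 50.8%) of Bmal1 WT macrophages (unthinned 68.7% and 70.3%). Among fibroblasts it was in 41 of 111 cells (36.9%, 95% interval 28 to 46.6%) and 66 of 190 cells (34.7%, 95% interval 28 to 42%) (unthinned 64.9% and 60.1%). In melanoma it was in 0 of 80 and 0 of 206 cells (upper 95% limits of 4.51% and 1.77%; unthinned 1.01% and 1.19%). Ndufa4l2 was in 30 of 111 cells (27%, 95% interval 19 to 36.3%) and 53 of 190 cells (27.9%, 95% interval 21.6 to 34.8%) of fibroblasts (unthinned 45.5% and 45.4%), and in at most 1 cell of each other class and group. Vegfa was in 262 of 808 cells (32.4%, 95% interval 29.2 to 35.8%) of NK cells in Empty vector and 113 of 378 cells (29.9%, 95% interval 25.3 to 34.8%) in Bmal1 WT, against 49 of 739 cells (6.63%, 95% interval 4.95 to 8.67%) and 15 of 329 cells (4.56%, 95% interval 2.57 to 7.41%) of T cells (unthinned 40.6%, 47.5%, 7.95% and 13.7%). Intervals are exact binomial and, like all counting intervals given here, cover counting error only.

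**Figure D3:**
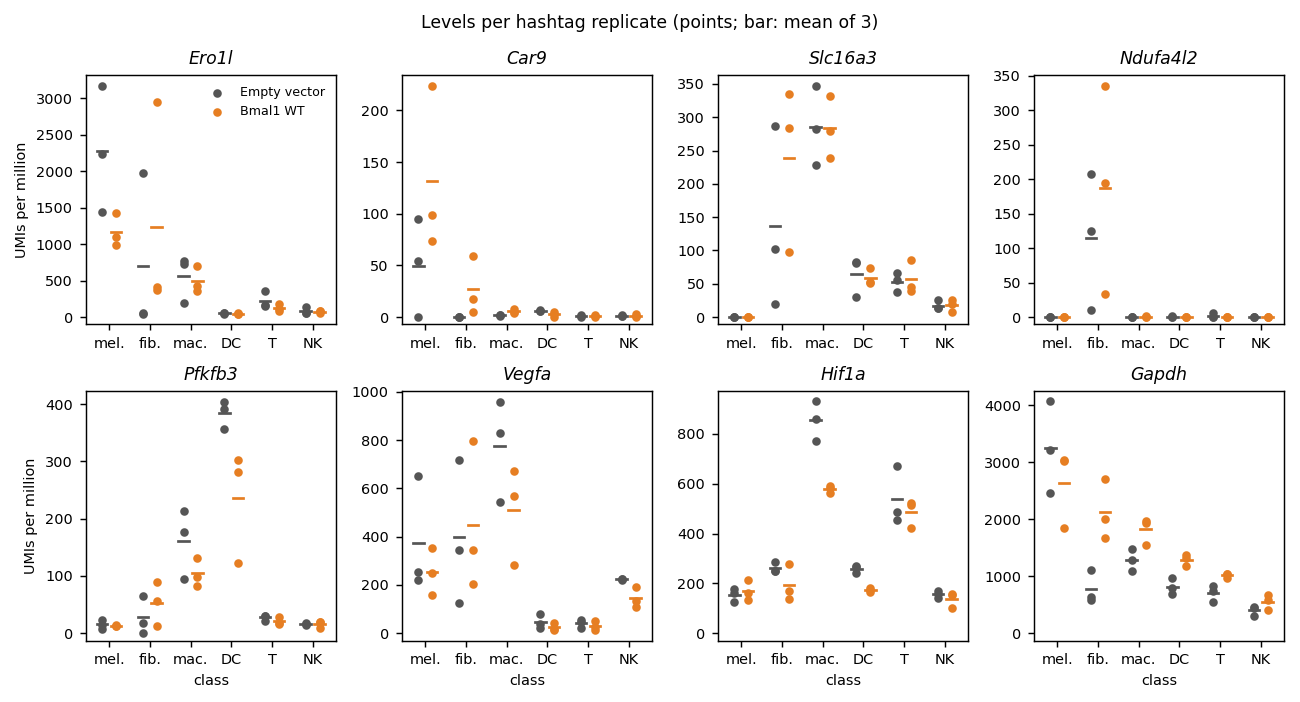
Level of 8 genes in each class, in CPM on a linear axis, 1 point per hashtagged replicate with bars at the mean of 3 and Empty vector and Bmal1 WT side by side. Slc16a3 is at or near 0 in melanoma, and Ndufa4l2 is above 0 almost only in fibroblasts. Groups lie apart in 4 of 6 tested classes for Gapdh, 2 of 6 for Hif1a and 1 of 6 for Ero1l and for Vegfa. They lie apart in 1 of 5 for Pfkfb3 and in none tested for Car9, Slc16a3 and Ndufa4l2.

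The second comparison asked whether the genes differed between Bmal1 WT and Empty vector within each class. The test was edgeR's quasi-likelihood test on the sums of the 3 replicates a group, over genes with at least 100 UMIs, and fold changes are given as Bmal1 WT against Empty vector on the log2 scale. Of the members 35 were tested in at least 1 class, 24 in every class, and Pfkm and Apln in none. In all 6 classes 0 members passed an adjusted p of 0.05. Over all genes, calls made up 0% in melanoma, fibroblasts, macrophages and T cells, 0.279% (16 genes) in dendritic cells and 0.108% (8 genes) in NK cells. At an unadjusted p under 0.05 there were 3 of 30 members tested in melanoma, 10 of 30 in fibroblasts, 2 of 31 in macrophages, 5 of 27 in dendritic cells, 7 of 29 in T cells and 3 of 26 in NK cells. Over all genes these were 227 of 7665 in melanoma, 343 of 3412 in fibroblasts and 972 of 7150 in macrophages. In dendritic cells they were 830 of 5730, in T cells 1772 of 8129 and in NK cells 869 of 7441. DESeq2 called 4 members in fibroblasts, 1 in dendritic cells, 2 in T cells and 0 in the other classes. Over all genes it called 25 in fibroblasts, 84 in dendritic cells, 269 in T cells, 25 in macrophages, 77 in NK cells and 0 in melanoma. Values below are therefore given as levels and fold changes, not as changes.

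In melanoma cells 24 of 30 members lay lower in Bmal1 WT, with medians of -0.28 for the enzymes and -0.33 for the HIF genes against -0.01 over all genes. Groups did not overlap for 5 members (1 higher and 4 lower), while they did not overlap for 9.85% of all genes. Ero1l was at 1440, 3165 and 2227 CPM in the Empty vector replicates and 982, 1097 and 1422 in those of Bmal1 WT. The 3 Bmal1 WT replicates lay below the 3 others (-0.95 ± 0.31 (SE), adjusted p = 0.999). Pgk1 was at 1526, 3372 and 1417 CPM in the Empty vector replicates and 1346, 1223 and 667 in those of Bmal1 WT, again with no overlap (-0.94 ± 0.39 (SE), adjusted p = 0.999). Egln3 was at 5.69, 59.2 and 15.2 CPM in the Empty vector replicates and 46.8, 22 and 53.8 in those of Bmal1 WT, with overlapping groups (1.56 ± 0.68 (SE), adjusted p = 0.999). Hif1a was at 124, 177 and 163 CPM in the Empty vector replicates and 159.6, 135 and 215 in those of Bmal1 WT, also with overlap (0.17 ± 0.28 (SE), adjusted p = 0.999). With hashtags called by centred log counts both turned, to -0.72 for Egln3 and -0.24 for Hif1a, and without Bmal1 WT h9 Hif1a was at -0.035.

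Empty vector h7, with 4 melanoma cells, held the highest value of Ero1l, Pgk1 and Egln3 alike. Without it the median was -0.11 for the enzymes and 0.045 for the HIF genes. Over all cells of the class, hashtagged or not, Ero1l was at 1892 (95% interval 1850 to 1934) in Empty vector and 1158 (1137 to 1179) in Bmal1 WT, and Pgk1 at 1459 (95% interval 1423 to 1497) in Empty vector and 1312 (1290 to 1334) in Bmal1 WT, with log2 ratios of -0.71 and -0.15. Those cells form 1 sum per library and allow no test.

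Fibroblasts showed the opposite order. There 29 of 30 members lay higher in Bmal1 WT, with medians of 1.04 for the enzymes and 0.79 for the HIF genes against -0.11 over all genes, and 10 members had groups without overlap, all higher in Bmal1 WT (14.8% of all genes in either direction). Gapdh was at 1105, 578 and 629 CPM in the Empty vector replicates and 2698, 2012 and 1665 in those of Bmal1 WT (1.46 ± 0.33 (SE), adjusted p = 0.349). Ldha, lactate dehydrogenase A, was at 481, 255 and 454 CPM in the Empty vector replicates and 1297, 922 and 875 in those of Bmal1 WT (1.38 ± 0.32 (SE), adjusted p = 0.349). Tpi1, triosephosphate isomerase, was at 372, 164 and 263 CPM in the Empty vector replicates and 627, 608 and 644 in those of Bmal1 WT (1.23 ± 0.32 (SE), adjusted p = 0.349). Every Bmal1 WT replicate lay above every Empty vector replicate for all 3 genes. Hif1a was at 248, 250.3 and 285 CPM in the Empty vector replicates and 277, 135 and 169 in those of Bmal1 WT (-0.43 ± 0.32 (SE), adjusted p = 0.673), with overlap.

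Ero1l was at 1978, 48.1 and 54.9 CPM in the Empty vector replicates and 2944, 366 and 407 in those of Bmal1 WT, so that 1 replicate of each group, Empty vector h1 and Bmal1 WT h3, stood far above the other 4, and the fold change was 0.84 ± 1.25 (SE), adjusted p = 0.847. The median of the HIF genes ran from 0.16 without Bmal1 WT h3 to 2.82 without Empty vector h1.

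These fibroblast sums held 8 to 17 cells a replicate. Macrophage markers summed to 1021 CPM in Empty vector h8 and to 8.68 to 43.4 in the other replicates, and the fibroblast markers to 17255 to 18350 in Empty vector and 10971 to 18158 in Bmal1 WT. The median mitochondrial share was 3.91% to 4.89% in Empty vector and 0.92% to 3.77% in Bmal1 WT. The part of these differences was not tested. Over all fibroblasts of a library, Gapdh was at 1212 (95% interval 1169 to 1257) in Empty vector and 2013 (1975 to 2050) in Bmal1 WT, a log2 ratio of 0.73, and the median of the enzymes was 0.41. In the cells with no hashtag, which the replicate sums did not use, the enzyme median was 0.20.

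In macrophages 11 of 31 members lay higher and 20 lower in Bmal1 WT, and 3 had groups without overlap (19.8% of all genes). Hif1a was at 769.8, 861 and 931 CPM in the Empty vector replicates and 564, 584 and 592 in those of Bmal1 WT, and the groups did not overlap (-0.56 ± 0.12 (SE), adjusted p = 0.22). Gapdh was at 1277, 1087 and 1476 CPM in the Empty vector replicates and 1938, 1978 and 1556 in those of Bmal1 WT (0.51 ± 0.15 (SE), adjusted p = 0.243), and Pfkfb4, a relative of Pfkfb3, at 40.5, 55.5 and 41.1 CPM in the Empty vector replicates and 37.1, 23.1 and 32.9 in those of Bmal1 WT (-0.51 ± 0.24 (SE), adjusted p = 0.386). Neither of these overlapped between groups, Gapdh being higher and Pfkfb4 lower in Bmal1 WT. Stress genes summed to 6103 to 8319 CPM in Empty vector and 5357 to 6780 in Bmal1 WT, and their part was not tested.

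Dendritic cells gave the same order of Hif1a and Gapdh. Hif1a was at 241, 269 and 264 CPM in the Empty vector replicates and 167, 182 and 175 in those of Bmal1 WT (-0.56 ± 0.14 (SE), adjusted p = 0.134), Gapdh at 687, 789 and 975 CPM in the Empty vector replicates and 1367, 1318 and 1174 in those of Bmal1 WT (0.66 ± 0.14 (SE), adjusted p = 0.102) and Ldha at 327, 360.4 and 385 CPM in the Empty vector replicates and 469, 474 and 618 in those of Bmal1 WT (0.54 ± 0.15 (SE), adjusted p = 0.161). Bmal1 WT lay below Empty vector for Hif1a and above it for Gapdh and Ldha, with no overlap for any of them. The enzymes had a median of 0.23 with 10 higher and 4 lower, and the HIF genes one of -0.24 with 2 higher and 7 lower, against -0.11 over all genes. With cluster-based classes the enzyme median was 0.47 and the HIF median turned to 0.083. Of the members 6 had groups without overlap (22.4% of all genes). Macrophage markers in this class summed to 251 to 637 CPM in Empty vector and 91.9 to 348 in Bmal1 WT, and T cell markers to 44.8 to 114 and 9.9 to 22.5, and their part was not tested.

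T cells held the smallest adjusted p-values. Gapdh was at 743, 554 and 822 CPM in the Empty vector replicates and 1033, 1046 and 974 in those of Bmal1 WT (0.52 ± 0.14 (SE), adjusted p = 0.0872), Eno1, enolase, at 305, 249.6 and 306 CPM in the Empty vector replicates and 376, 379.6 and 428 in those of Bmal1 WT (0.45 ± 0.12 (SE), adjusted p = 0.0872), and Aldoc at 19.3, 17.2 and 18.5 CPM in the Empty vector replicates and 10.5, 6.28 and 8.76 in those of Bmal1 WT (-1.08 ± 0.29 (SE), adjusted p = 0.088). Gapdh and Eno1 were higher and Aldoc lower in all Bmal1 WT replicates. Hif1a was at 486, 454 and 670.4 CPM in the Empty vector replicates and 524, 422 and 515 in those of Bmal1 WT, with overlap (-0.14 ± 0.16 (SE), adjusted p = 0.627). Groups did not overlap for 7 members (28.7% of all genes). The enzymes lay higher in 11 of 14 tested and the HIF genes lower in 10 of 11, with medians of 0.16 and -0.27 against -0.10 over all genes. Macrophage markers summed to 682 to 892 CPM in the Empty vector and 253 to 797 in the Bmal1 WT replicates of this class, and stress genes to 996 to 1506 and 617 to 1223, and their part was not tested. Hif1a turned to 0.049 without Empty vector h8.

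NK cells had 12 enzymes higher and 1 lower, and 8 of 9 HIF genes lower, with medians of 0.13 and -0.12 against -0.09 over all genes. Vegfa was at 224, 224 and 222 CPM in the Empty vector replicates and 192, 136 and 107 in those of Bmal1 WT, and all 3 Bmal1 WT replicates lay below the others (-0.55 ± 0.17 (SE), adjusted p = 0.227). Eno1 was at 209, 212 and 206 CPM in the Empty vector replicates and 317, 353 and 179.9 in those of Bmal1 WT (0.47 ± 0.18 (SE), adjusted p = 0.34), Gapdh at 308, 438 and 469 CPM in the Empty vector replicates and 591, 665 and 404 in those of Bmal1 WT (0.46 ± 0.18 (SE), adjusted p = 0.348), and Hif1a at 171, 140.2 and 159 CPM in the Empty vector replicates and 155, 158 and 102 in those of Bmal1 WT (-0.14 ± 0.16 (SE), adjusted p = 0.774), and these 3 overlapped between groups. Only 2 members had groups without overlap (18.1% of all genes). Macrophage markers summed to 778 to 1153 CPM in Empty vector and 673 to 833 in Bmal1 WT, and their part was not tested.

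The classes share their replicates and droplet channels, so their values are not independent. Gapdh, Ldha, Pgk1, Tpi1, Eno1 and Pkm have near-identical copies elsewhere in the genome, so their counts are uncertain to the extent that reads were shared between copies.

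**Figure D4:**
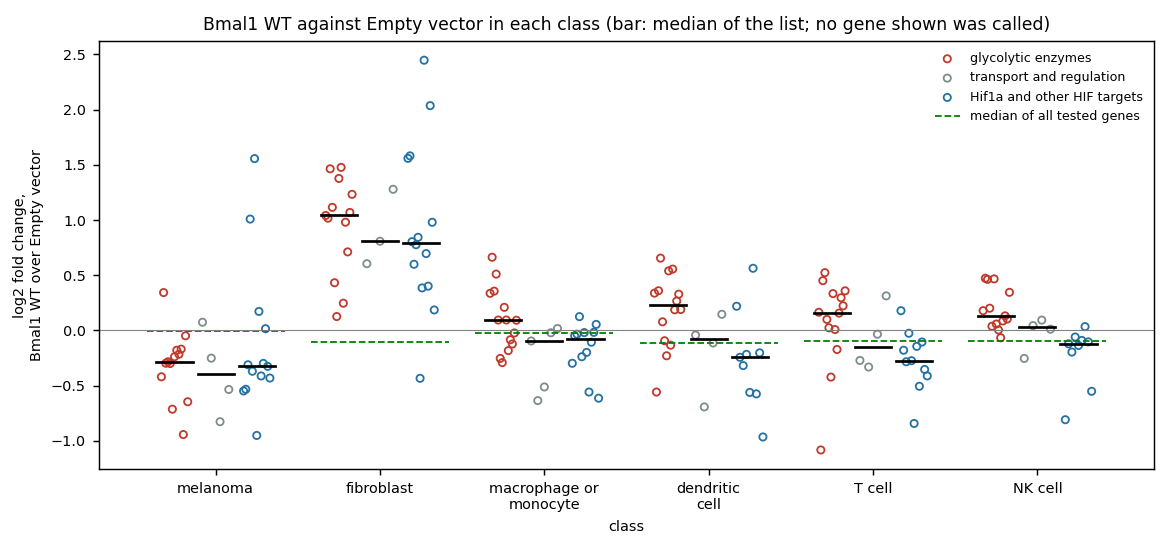
Log2 fold change of each tested member between Bmal1 WT and Empty vector in each class, with the 3 lists set apart, bars at the list medians and dashed lines at the median of all tested genes. Fibroblast points lie almost all above 0 and melanoma points mostly below 0, and no member passed an adjusted p of 0.05 in any class.

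Whether the effect differed between classes was tested as an interaction for a pair of class pairs. Between melanoma and fibroblasts 0 of 8450 genes were called (0%; edgeR). All 14 enzymes tested lay below 0, with a median of -1.32 against 0.13 over all genes, and 8 of them had an unadjusted p under 0.05. The share of all genes at that threshold is not given here for either pair. The melanoma side includes Empty vector h7 with its 4 cells, without which the melanoma medians changed as given above. For Gapdh the difference was -1.79 ± 0.48, adjusted p = 0.508. Between macrophages and T cells 0 of 9514 genes were called (0%), with medians of -0.052 for the enzymes and 0.14 for the HIF genes against 0.10 over all genes. At an unadjusted p under 0.05 there were 2 enzymes and 1 HIF gene in that pair.

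Further genes of both pathways likewise gave 0 calls in the 6 classes (edgeR). Further HIF genes lay higher and lower in Bmal1 WT 10 and 9 times in melanoma, 15 and 1 in fibroblasts, 12 and 8 in macrophages, 4 and 7 in dendritic cells, 5 and 15 in T cells, and 8 and 9 in NK cells. Of these 3, 5, 2, 4, 5 and 1 had an unadjusted p under 0.05. Their medians were 0.033 in melanoma and 0.062 in macrophages, on the other side of 0 from the members' medians of -0.33 and -0.08. Further glycolysis genes lay higher and lower 1 and 7 times in melanoma, 3 and 0 in fibroblasts, 3 and 4 in macrophages, 1 and 2 in dendritic cells, 4 and 3 in T cells, and 2 and 3 in NK cells, with 3, 1, 0, 0, 0 and 1 at an unadjusted p under 0.05. For both lists, the counts over all genes at that threshold are those given above for each class. Slc16a1 was among the 7 that lay lower in melanoma (-0.76 ± 0.29 (SE), adjusted p = 0.999).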

How the data were processed

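Single-cell RNA was measured with the 10x Genomics 3′ v3.1 kit in 1 Empty vector and 1 Bmal1 WT library, each with 3 hashtags. The deposited values are raw UMI counts per gene and barcode, made by the authors with Cell Ranger 6.1.2 (per the file headers) on mm10 (per the labels); further filters were not stated. The Bmal1 bHLH files copy those of Bmal1 WT and were not analysed, and 0 per-sample columns were left unused.

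Cells with at least 200 genes and at most 20% mitochondrial UMIs were kept. A cell joined a class when it had the largest share of that class's markers, at least 3 of them, and 10 percentage points more than any other of 11 classes. This scoring rule was chosen after seeing the data, and 259 Empty vector and 179 Bmal1 WT cells lay within 20 points of the next class. Each hashtag was called by a Gaussian mixture of 2 components. Cells with several hashtags were left out of the sums, which removes doublets between replicates, and other doublets were kept, except in an alternative without the 5% highest doublet scores.

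UMIs were summed per class and hashtag replicate, scaled by class totals, and tested with edgeR 4.0.16 (R 4.3.3) as the quasi-likelihood test with Benjamini-Hochberg adjustment over all genes. DESeq2 1.42.0, TMM scaling, no gene filter, stricter cells, cluster-based classes (scanpy 1.11.5) and leaving out each replicate were alternatives. The class totals ranged from 2010521 UMIs in fibroblasts to 9651335 in T cells, so that a count of 3 UMIs, the floor, is worth 1.49 and 0.311 CPM. Scripts were tested on simulated data. Promoters came from RefSeq (GRCm38.p6). Aldoa has a second identifier with 2 UMIs, which was not used.

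Members, lists and rules were chosen with earlier results of these data known. Named with values were Hif1a, in each class the 3 members with the smallest p between groups (as fewer than 3 passed), and the 3 highest and 1 lowest called members of each class contrast. Ero1l in fibroblasts, Pkm, Slc2a1, Pdk1, Egln1, Bnip3l, Mxi1, Ankrd37, Apln, Pfkfb3 in dendritic cells, the genes named from the other pathway lists and further members named beside a count were added after their values were seen.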

Additional observations from a re-analysis of the deposited data

Results flagged for a closer look

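Pgk1 was picked out by its values because its groups lay apart in opposite directions in different classes, and it passed no test (edgeR adjusted p = 0.999 in melanoma). Its log2 fold change between Bmal1 WT and Empty vector was -0.94 in melanoma, where all 3 Bmal1 WT replicates lay lower, and 0.27 in dendritic cells and 0.30 in T cells, where all 3 lay higher. Groups without overlap were common, at 9.85% of all genes in melanoma, 22.4% in dendritic cells and 28.7% in T cells. The difference between these classes was not tested, and over all melanoma cells, hashtagged or not, the log2 ratio was -0.15. Groups of 3 replicates are too small for the check for single outlying samples, which was not run.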

How the results depend on the processing

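No paired analysis was possible because the groups share no hashtag number. Between Bmal1 WT and Empty vector the main counts of called members were 0 in every class. With no gene filter they were 10 in fibroblasts, 2 in macrophages, 3 in dendritic cells, 3 in T cells and 2 in NK cells; with DESeq2 4 in fibroblasts, 1 in dendritic cells and 2 in T cells; with cluster-based classes 1 in dendritic cells and 4 in T cells. All genes called, against 0 in melanoma, fibroblasts, macrophages and T cells, 16 in dendritic cells and 8 in NK cells, were with no gene filter 17, 282, 253, 749, 384 and 175 in that order, and with DESeq2 25 in fibroblasts, 25 in macrophages, 269 in T cells, 84 in dendritic cells and 77 in NK cells. Cluster-based classes gave 70 in dendritic cells and 461 in T cells. TMM scaling gave 134 in T cells and 3 in NK cells, hashtags called by centred log counts 174 and 0, and removal of the top doublet scores 200 and 0. Leaving out 1 replicate at a time gave 0 to 1 in fibroblasts, 7 to 15 in dendritic cells, 0 to 105 in T cells (105 without Bmal1 WT h3) and 0 to 53 in NK cells (53 without Empty vector h7). The cause of these differences was not tested.

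The enzyme median in fibroblasts, 1.04, was 0.41 over all cells per library and 0.20 in cells with no hashtag, which was tried only after the data had been seen. The HIF median of 0.79 there ran from 0.16 to 2.82 when 1 replicate was left out, and that of -0.08 in macrophages from -0.50 (without Bmal1 WT h3) to 0.065 (without Empty vector h1). In dendritic cells cluster-based classes moved the enzyme median from 0.23 to 0.47 and the HIF median from -0.24 to 0.083. Single values turned for Egln3 (-0.72) and Hif1a (-0.24) in melanoma with centred log hashtags, for Hif1a in melanoma (-0.035, without Bmal1 WT h9, to 0.32 when 1 replicate was left out) and for Hif1a in T cells (-0.25 to 0.049, the latter without Empty vector h8).

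Between classes, members called higher in fibroblasts, 25, ran from 16 to 29 when 1 replicate was left out. The 2 lower calls in macrophages were 0 with TMM scaling, DESeq2 and cluster-based classes and 0 to 2 when 1 replicate was left out, and the 2 higher calls in T cells were 1 with DESeq2 and 1 with cluster-based classes. Over all alternatives 248 counts stayed within 1.5 times the main count and 52 did not, 166 list medians moved by less than the spread between replicates and 6 by more, and of single genes 484 kept direction and call, 21 gained and 13 lost a call and 4 turned. Depth limits the fibroblast sums most, since 3412 genes could be tested there and 8129 in T cells.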
